A study of Mus musculus with 8 samples.

Results

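The genes described here encode 10 cell surface receptors of myeloid cells: the C-type lectins Clec4a1, Clec4a2, Clec4a3, Clec4d, Clec4e, Clec4n, Clec5a and Clec12a, and the sialic acid binding lectins (Siglecs) Cd33 and Siglece. They were taken by symbol from a fixed list, which leaves out Clec7a, and make up 10 of the 30743 named genes of the data. Each had 1 probe set, and all 10 were among the 18244 genes bright enough to be tested, although Clec4e passed that filter only through the EAE arrays. Microglial RNA of C57Black/6J mice was measured on 8 whole-transcript expression arrays, 1 for each of 8 groups. The groups crossed 2 genotypes, control (titled FL, or F/F on the p50 arrays) and icKO, a conditional knockout of connexin 47 directed at oligodendroglia, with 4 states. These were naive mice, mice with experimental autoimmune encephalomyelitis (EAE, in which immune cells attack myelin), EAE mice given iguratimod (an antirheumatic drug), and a further EAE pair marked p50, a mark whose meaning the labels do not give. One label of the iguratimod control array calls its mice wt where its title has FL. The Cre driver, the ages of the mice and the number of animals behind an array are not given in the sources used here, and the knocked-out gene was not analysed here.

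C-type lectins of this kind sit on macrophages, monocytes, neutrophils and dendritic cells and bind sugars, lipids or other ligands of microbes and damaged cells. One class signals through adaptors that carry immunoreceptor tyrosine-based activation motifs (ITAMs), namely the Fc receptor gamma chain or DAP12, to the kinase Syk and the adaptor Card9. The other class carries inhibitory motifs (ITIMs) that recruit phosphatases, as most Siglecs do after binding sialic acids on host cells. The lectin genes Clec4a1, Clec4a3, Clec4a2, Clec4n, Clec4d and Clec4e lie in this order in one cluster on mouse chromosome 6 of the RefSeq assembly GRCm38.p6, with the relatives Clec4a4, Clec4b1 and Clec4b2 between them. Such paralogs can share probe sequence, so a value of one may hold signal of another.

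The promoters of Clec4e, Clec12a and Clec4a3 are shown because these 3 genes passed a test below. Each is the 250 bases before an annotated RefSeq start, 5′ to 3′ on the strand of the gene. Capitals mark matches, on either strand, to the PU.1 core GAGGAA, the C/EBP motif TTGCNNAA and the AP-1 motif TGANTCA. For Clec4a3, which has 2 annotated starts, the window of the first is shown, and it holds no match. The window of its second start, which overlaps the first, holds 1 PU.1 core, may hold transcribed sequence and is not printed. The Clec12a window lies inside the annotated span of its gene, so it may hold transcribed sequence too.
Clec4e (GRCm38.p6, chr6:123289872-123290121, minus strand): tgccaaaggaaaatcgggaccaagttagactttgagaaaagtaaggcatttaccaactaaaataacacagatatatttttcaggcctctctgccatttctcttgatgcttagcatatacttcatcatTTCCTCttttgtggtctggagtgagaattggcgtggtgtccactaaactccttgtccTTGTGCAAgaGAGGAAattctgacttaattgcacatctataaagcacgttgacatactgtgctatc
Clec12a (GRCm38.p6, chr6:129349994-129350243, plus strand): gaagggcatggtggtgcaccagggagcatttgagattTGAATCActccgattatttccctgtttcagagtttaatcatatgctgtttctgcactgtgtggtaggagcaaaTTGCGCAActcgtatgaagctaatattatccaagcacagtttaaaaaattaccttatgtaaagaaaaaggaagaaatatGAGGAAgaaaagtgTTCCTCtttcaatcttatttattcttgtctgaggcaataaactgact
Clec4a3 (GRCm38.p6, chr6:122952265-122952514, plus strand): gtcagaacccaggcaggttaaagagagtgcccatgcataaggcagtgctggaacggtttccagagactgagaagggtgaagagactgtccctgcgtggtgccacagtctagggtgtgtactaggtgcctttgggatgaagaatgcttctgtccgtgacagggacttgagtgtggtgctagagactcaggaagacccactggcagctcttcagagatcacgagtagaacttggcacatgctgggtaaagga
No match overlapped another. PU.1 is a factor that macrophages depend on, C/EBP factors act in myeloid genes, and AP-1 is formed by Fos and Jun proteins. Among the 9 genes with a window in the table (Clec4n had none), 7 held the PU.1 core before their first listed start, against 23.3% of all 32851 windows. Among these, the windows of Clec12a, Cd33 and Siglece lie inside the annotated spans of their genes. The C/EBP motif was in 2, Clec4e and Clec12a, against 9.56% of windows, and the AP-1 motif in 1, Clec12a, against 6.75%. The first Clec4a3 window and the Clec4a2 window held none of these motifs. None of the 9 held the NF-kB motif searched, GGG and TTTCC with 2 free bases between them, found in 1.41% of windows. A match is a run of letters and was not tested as a binding site.

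Levels are given as log2(intensity + 16) and are compared only within a gene. Both EAE arrays lay above both naive arrays for 29.5% of all genes tested and below both for 22.5%, so such a separation is common. In EAE against naive microglia, Clec4a3 fell and Clec4e rose, with adjusted p-values of 0.0417 and 0.0369. The limma fit over all 8 arrays, with Benjamini-Hochberg adjustment, called 3.72% of all genes (3.33% higher and 0.384% lower). Clec4e entered this fit only through the EAE arrays, where it was high, so its call is not read against that share, and Clec4a3 was the 1 call among the other 9 genes. Fitted over all named genes with no filter, Clec4e had an adjusted p of 0.0488. The median log2 difference of the 10 was 0.32, against 0.01 over all genes tested. This median includes Clec4e, so it too is not read as a shift of the 10 against all genes. The fit adds a state effect and a genotype effect and, with no second array in any group, takes its spread from how far these fail to add up. Leaving out any 1 of the 8 arrays ended both calls, with adjusted p between 0.0523 and 0.157 for Clec4e and between 0.0603 and 0.179 for Clec4a3, while the direction of both stayed. With a further quantile normalization, or with a trended and robust prior, neither was called, with adjusted p between 0.0505 and 0.0581, and without the filter Clec4a3 was at 0.0567.

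**Figure D1:**
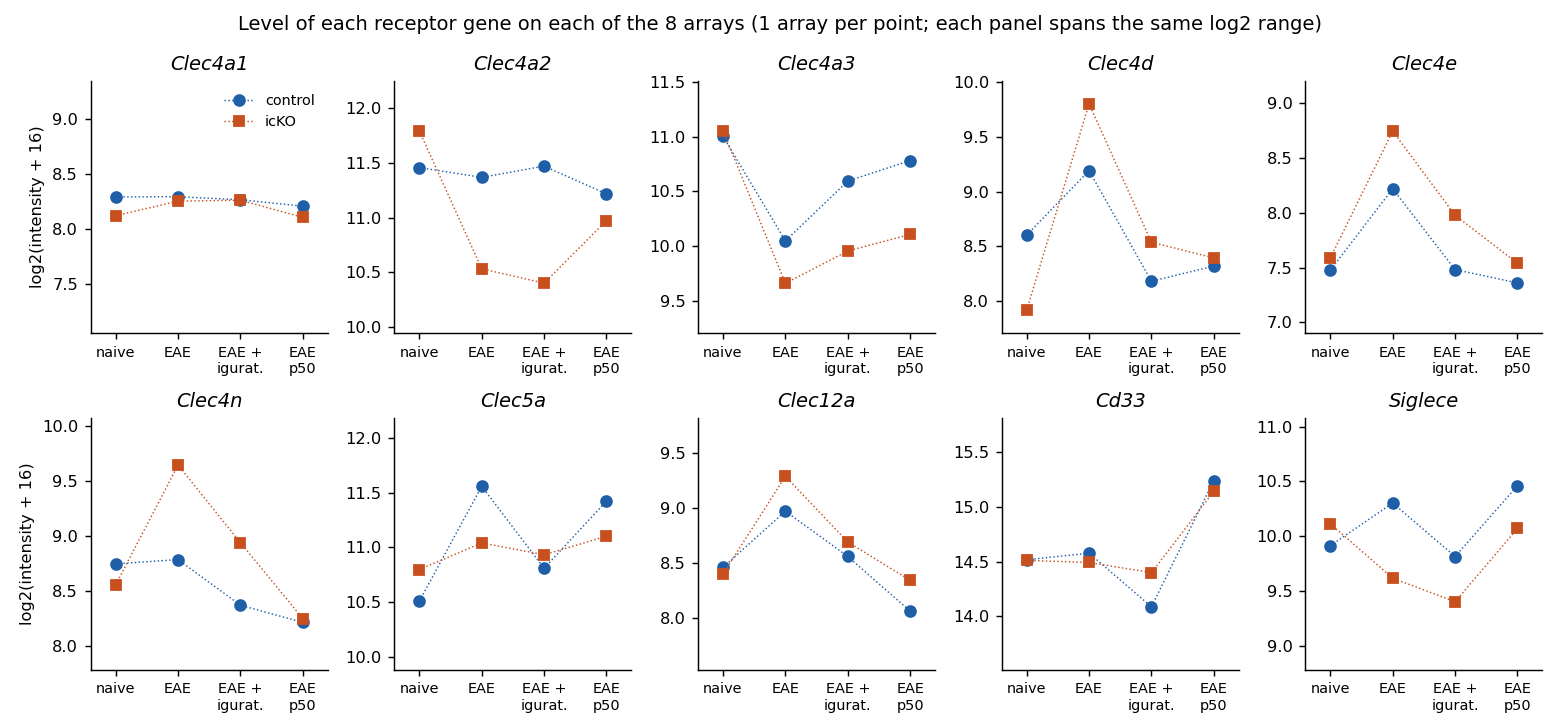
Level of each of the 10 genes, as log2(intensity + 16), on each array, by state, for control (circles) and icKO (squares); every point is 1 array, so there are no error bars, and dotted lines only join arrays of a genotype. Clec4e, Clec4d and Clec12a were brightest on the EAE arrays, Clec4a3 was brightest on the naive arrays, and Cd33 was brightest on the p50 arrays.

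Clec4e encodes Mincle, an activating receptor for mycobacterial glycolipid and for a protein set free by dying cells. Its level was 7.48 in control and 7.59 in icKO naive microglia, 8.22 and 8.75 in EAE, 7.48 and 7.98 in EAE with iguratimod, and 7.36 and 7.54 on the p50 arrays. Both EAE arrays lay above the other 6, and on those 6 it was dimmer than the median named probe set (the 50th percentile), so its level there is close to what dim probe sets give. The measured difference between EAE and naive was 0.95 ± 0.16 (SE), and with the naive side that dim it does not give the size of the rise. Clec4d encodes MCL, which forms a complex with Mincle and also couples to the Fc receptor gamma chain. It was at 8.60 in control and 7.92 in icKO naive microglia, 9.19 and 9.80 in EAE, 8.18 and 8.54 with iguratimod, and 8.32 and 8.39 on the p50 arrays. Again both EAE arrays were the highest, and the difference from naive was 1.24 ± 0.30 with a limma adjusted p of 0.0970, above the threshold of 0.05. It ran from 0.72 without the icKO naive array to 1.75 without the control naive array. On the icKO naive and control iguratimod arrays Clec4d was dimmer than the 50th percentile of named probe sets, so a difference that uses either is uncertain in size. Clec4n encodes Dectin-2, a receptor for fungal mannans. It lay at 8.75 and 8.55 in naive control and icKO, 8.78 and 9.65 in EAE, 8.37 and 8.94 with iguratimod, and 8.21 and 8.25 on the p50 arrays. Its high value was that of the icKO EAE array alone, and EAE against naive gave 0.57 ± 0.27 (limma adjusted p = 0.325), from 0.20 without the icKO EAE array to 0.93 without the control EAE array.

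Clec5a encodes MDL-1, an activating receptor that signals through DAP12. Its level was 10.51 in control and 10.80 in icKO naive microglia, 11.56 and 11.04 in EAE, 10.81 and 10.93 with iguratimod, and 11.42 and 11.10 on the p50 arrays. Both EAE and both p50 arrays were above both naive and both iguratimod arrays. The differences from naive were 0.65 ± 0.22 in EAE and 0.61 ± 0.22 on the p50 arrays, with limma adjusted p of 0.193 and 0.204. The EAE value ran from 0.37 without the control EAE array to 0.92 without the icKO EAE array.

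Of the 3 genes of the DCIR group, 1 fell in EAE and 2 did not pass. Clec4a3 was at 11.00 in control and 11.05 in icKO naive microglia, 10.05 and 9.66 in EAE, 10.60 and 9.96 with iguratimod, and 10.78 and 10.11 on the p50 arrays. The naive arrays were the highest and did not overlap any of the others. It fell by 1.17 on the log2 scale in EAE (SE 0.20). Clec4a2, which encodes the ITIM-bearing receptor DCIR, lay at 11.46 and 11.79 in naive control and icKO, 11.37 and 10.53 in EAE, 11.47 and 10.40 with iguratimod, and 11.22 and 10.97 on the p50 arrays. All 4 control arrays lay between 11.22 and 11.47, whereas the icKO arrays spread from 10.40 to 11.79. EAE against naive gave -0.67 ± 0.34 (limma adjusted p = 0.345), from -1.20 without the control naive array to -0.15 without the icKO naive array. Clec4a1 stayed between 8.10 and 8.29 on all 8 arrays, close to the 50th percentile of named probe sets, and EAE against naive gave 0.07 ± 0.12.

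The 3 relatives within the cluster showed no call in EAE. Clec4a4, another inhibitory DCIR gene, ranged from 8.68 to 9.38, with both naive arrays the highest. Clec4b1 ranged from 7.76 to 9.01 and was lowest on the icKO iguratimod and icKO EAE arrays, the same 2 arrays on which Clec4a2 was lowest. Clec4b2 ranged from 8.49 to 9.0, with naive and EAE overlapping.

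Clec12a encodes MICL, an ITIM-bearing receptor for uric acid crystals and dead cells. Its level was 8.46 in control and 8.40 in icKO naive microglia, 8.97 and 9.29 in EAE, 8.56 and 8.69 with iguratimod, and 8.06 and 8.34 on the p50 arrays. Both EAE arrays were above, and both p50 arrays below, the other 4. EAE against naive gave 0.70 ± 0.14 with an adjusted p of 0.0597, which became 0.0411 with arrays centred on their median and 0.0473 with a trended and robust prior.

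Cd33 lay at 14.52 in control and 14.51 in icKO naive microglia, 14.58 and 14.49 in EAE, 14.09 and 14.40 with iguratimod, and 15.24 and 15.14 on the p50 arrays. The p50 pair stood above the other 6 arrays, which spanned 14.09 to 14.58. Both p50 arrays lay above both naive arrays for 31.59% of all genes tested, and above both EAE arrays for 26.42%. A separation from either pair is thus common, and how many genes stood above all 6 was not counted. EAE against naive gave 0.02 ± 0.15, and -0.32 after a further quantile normalization. Siglece, an ITIM-bearing Siglec of microglia and neutrophils, was at 9.91 and 10.11 in naive control and icKO, 10.30 and 9.62 in EAE, 9.82 and 9.40 with iguratimod, and 10.46 and 10.07 on the p50 arrays. Naive and EAE overlapped, with a difference of -0.05 ± 0.22. In control the EAE array was higher than the naive one by 0.39, and in icKO the difference was -0.50.

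**Figure D2:**
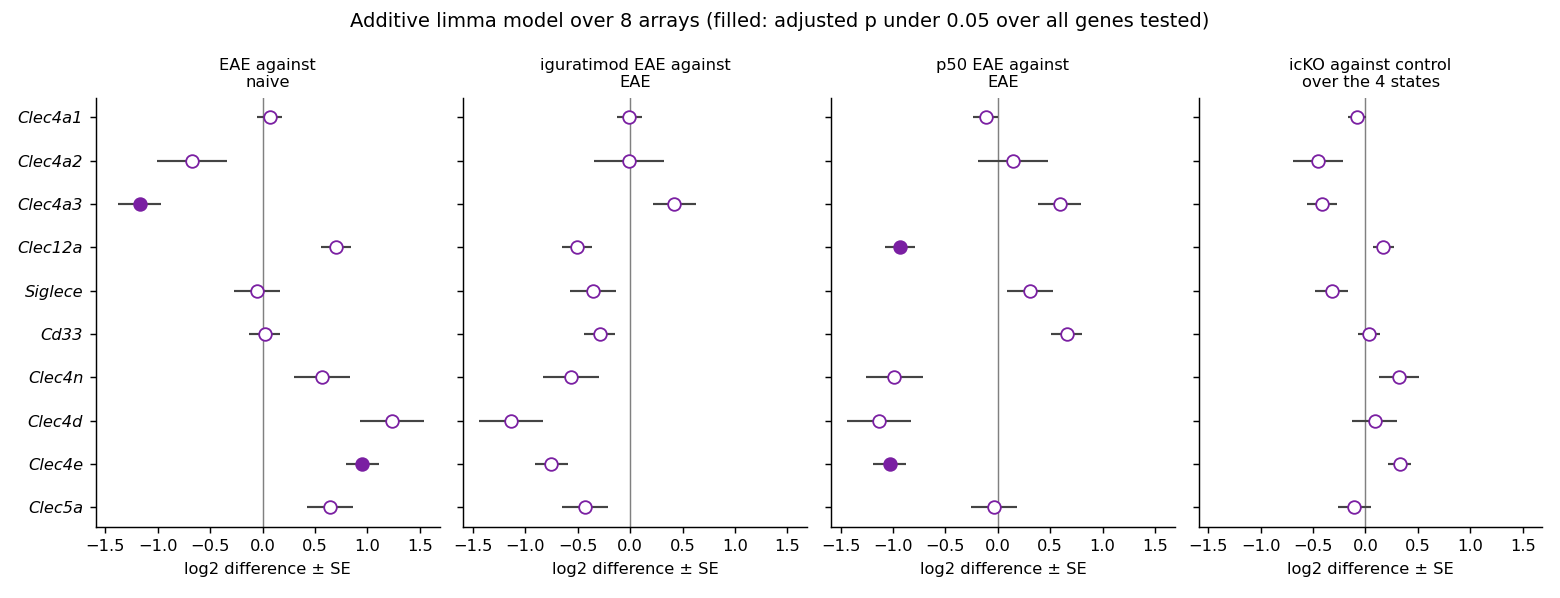
Log2 difference of the 10 genes, with its SE as the bar, in 4 comparisons of the additive limma model over 8 arrays; filled circles have an adjusted p under 0.05 over all genes tested. Clec4e and Clec4a3 are filled in EAE against naive, Clec4e and Clec12a in p50 EAE against EAE, and none is filled for iguratimod or genotype.

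The change with EAE was then read within each genotype, 1 array against 1 array, with no test. In icKO, 5 of the 10 genes differed at least 2-fold between EAE and naive, where 5.73% of all genes did. Clec4e is among the 5 and passed the filter only through the EAE arrays, so the count is not read against that share. Its naive level was close to that of dim probe sets, so its value does not give the size of the rise. Clec4d was higher by 1.88, Clec4e by 1.16 and Clec4n by 1.09, while Clec4a3 gave -1.39 and Clec4a2 -1.26. The icKO naive array of Clec4d was also dimmer than the 50th percentile of named probe sets, so its 1.88 is uncertain in size. In control 1 of the 10 differed at least 2-fold, Clec5a at 1.05, where 7.75% of all genes differed as much. The control values of the icKO genes just named were 0.59 for Clec4d, 0.74 for Clec4e, 0.04 for Clec4n, -0.95 for Clec4a3 and -0.09 for Clec4a2. The difference between these changes was largest for Clec4d, at 1.29 ± 0.36, and for Clec4a2, at -1.17 ± 0.49. With a genotype effect of its own given to EAE only, these were 0.69 and -0.51, and no longer the largest for Clec4d, since Clec4n was at 0.73. A limma fit with a genotype effect for naive, 1 for EAE and 1 for the other states, which leaves 1 residual degree of freedom, called 0 of the 10 and 0% of all genes for this difference, with 3 of the 10 and 1135 of all genes at an unadjusted p under 0.05. The lowest adjusted p among the 10 was 0.652, that of Clec4d.

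Over the 4 states, the difference between icKO and control passed for none of the 10 genes: limma called 0 of them and 0% of all genes, with 2 of the 10 and 991 of all genes at an unadjusted p under 0.05. Those 2 were Clec4e, at 0.33 ± 0.11 and brighter in icKO in 4 of 4 states, and Clec4a3, at -0.41 ± 0.14 and dimmer in icKO in 3 of 4 states, each with an adjusted p of 0.882. Outside EAE, Clec4e was dimmer than the 50th percentile of named probe sets on every array. Its differences were 0.11 in naive microglia and 0.18 on the p50 arrays. How many of all genes kept 1 direction over the states was not counted. Clec4a2 gave -0.45 ± 0.24, Siglece -0.32 ± 0.16 and Clec4n 0.32 ± 0.19. Within single states at least 2-fold differences were found in 0 of the 10 genes in naive microglia (1.91% of all genes), 0 in EAE (1.84%), 1 under iguratimod (3.22%) and 0 on the p50 arrays (0.384%). The 1 was Clec4a2, at a log2 difference of -1.07, dimmer in icKO. In EAE the next in size were Clec4n, 1.82-fold brighter in icKO, and Clec4a2, 1.78-fold dimmer. Clec4d was 1.61-fold dimmer in icKO in naive microglia and 1.53-fold brighter in EAE. The 1.61 is uncertain in size, since the icKO naive array of Clec4d was dimmer than the 50th percentile of named probe sets.

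**Figure D3:**
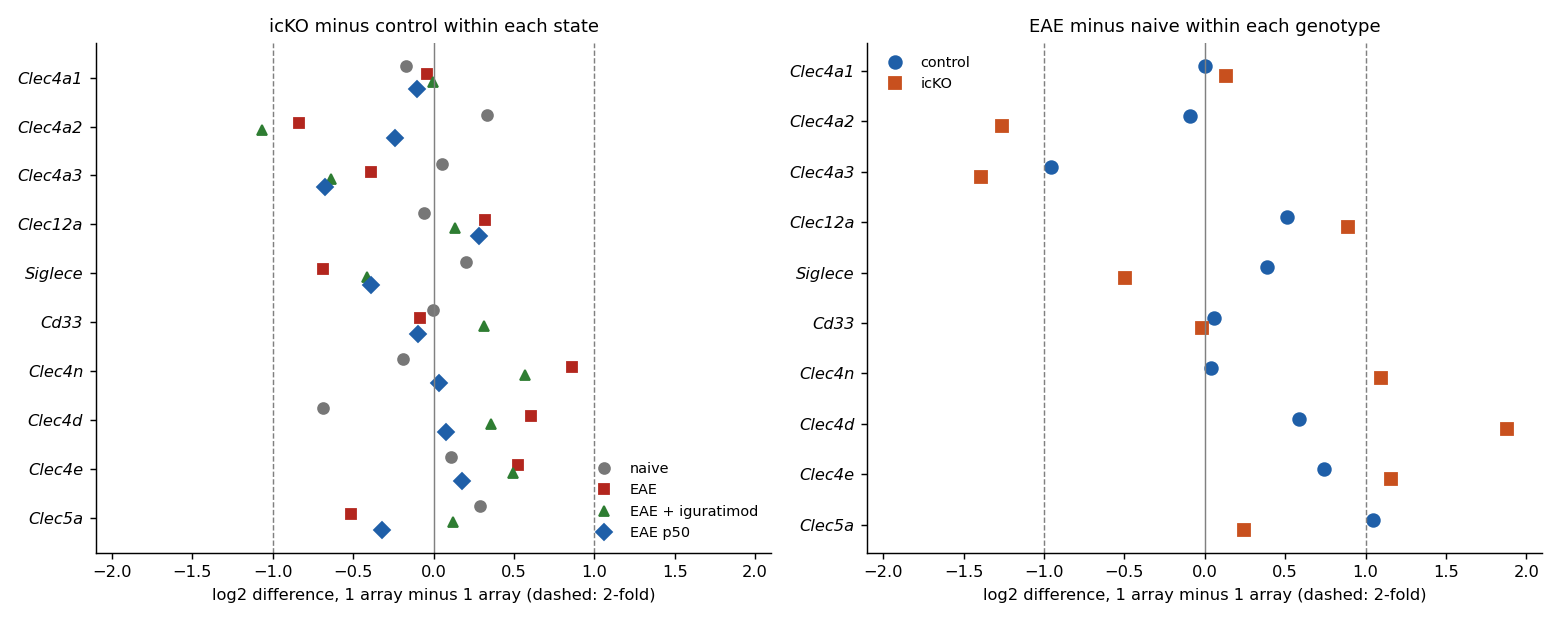
Log2 differences of 1 array against 1 array for the 10 genes: icKO minus control within each state on the left, and EAE minus naive within each genotype on the right, with dashed lines at 2-fold. On the right, Clec4d, Clec4e, Clec4n, Clec4a2 and Clec4a3 lie past 2-fold in icKO and Clec5a alone in control; these differences have no replicate and no test.

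In EAE microglia with iguratimod against EAE microglia without it, limma called 0 of the 10 and 0% of all genes, with 3 of the 10 and 1552 of all genes at an unadjusted p under 0.05. Those 3 were Clec4e at -0.75 ± 0.16 (adjusted p = 0.508), Clec4d at -1.14 ± 0.30 (adjusted p = 0.522) and Clec12a at -0.51 ± 0.14 (adjusted p = 0.531). Clec4e passed the filter only through the EAE arrays, so the count of 3 is not read against that of all genes. On both iguratimod arrays Clec4e was dimmer than the 50th percentile of named probe sets, so its value does not give the size of the fall. All 3 were lower with iguratimod in both genotypes. They were picked by a fit whose spread comes from disagreement of the genotypes, so this like direction is no further support. Both iguratimod arrays lay below both EAE arrays for 18.88% of all genes tested. The differences in control and icKO were -1.01 and -1.26 for Clec4d, -0.74 and -0.77 for Clec4e, and -0.41 and -0.60 for Clec12a. At least 2-fold differences were 1 of 10 in each genotype, Clec4d both times, where 2.67% of all genes in control and 2.21% in icKO differed as much. The control iguratimod array of Clec4d was dimmer than the 50th percentile of named probe sets, so its -1.01 is uncertain in size. Clec4a3 was higher with iguratimod in both genotypes, at 0.42 ± 0.20 (limma adjusted p = 0.637). The EAE arrays stand in this comparison and in those with naive and p50 microglia, so the values are set side by side and not compared. For the difference between the genotypes in this change, limma called 0 of the 10 and 0% of all genes, with 0 of the 10 and 1525 of all genes at an unadjusted p under 0.05.

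Against naive microglia, iguratimod-treated EAE microglia gave 0 calls among the 10, where limma called 0.00548% of all genes, and 1 of the 10 had an unadjusted p under 0.05. That was Clec4a3, at -0.75 ± 0.20 (adjusted p = 0.276). Clec4e gave 0.20 ± 0.16, Clec4d 0.10 ± 0.30 and Clec4n 0.00 ± 0.27, with the control array of Clec4e at the same level as in naive microglia. All Clec4e arrays of this comparison were dimmer than the 50th percentile of named probe sets, so like values do not show a return to the naive level. Clec4a2 gave -0.69 ± 0.34, with levels of 11.47 against 11.46 in control and 10.40 against 11.79 in icKO.

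The p50 EAE arrays differed from the other 6 in the X-inactivation RNA Xist, at 15.90 and 16.64 against at most 8.30 elsewhere, so p50 and this difference cannot be told apart in the values that follow. Against EAE, Clec12a fell by 0.93 on the log2 scale (SE 0.14) and Clec4e also fell, with limma adjusted p of 0.0374 and 0.0363, where 2.70% of all genes were called and 1.62% as lower. Clec12a was the 1 call among the 9 genes other than Clec4e, which passed the filter only through the EAE arrays and had an adjusted p of 0.0472 with no filter. The measured difference of Clec4e was -1.03 ± 0.16, against p50 arrays on which it was close to the dim probe sets, so it does not give the size of the fall. On the control p50 array Clec12a too was dimmer than the 50th percentile of named probe sets, so its fall of 0.93 is uncertain in size. Both p50 arrays were below both EAE arrays for Clec12a and Clec4e, as they were for 30.95% of all genes tested. Leaving out any 1 array ended both calls, with adjusted p between 0.0523 and 0.304 for Clec4e and between 0.0536 and 0.262 for Clec12a. Clec4d gave -1.14 ± 0.30 and Clec4n -0.99 ± 0.27, with limma adjusted p of 0.116 and 0.120. Against naive, limma called 0 of the 10 and 0.795% of all genes, with 3 of the 10 and 3742 of all genes at an unadjusted p under 0.05. Cd33 had the lowest adjusted p of the 10 there, 0.0962, at a difference of 0.68 ± 0.15. Against EAE it gave 0.66 ± 0.15 (limma adjusted p = 0.0848). After a further quantile normalization the difference of Cd33 from naive was 0.37.

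Markers of other cells were read on the same arrays. All 10 named genes of the microglia list, among them Cx3cr1, P2ry12 and Sall1, were above the 50th percentile of named probe sets on every array, with list means of 14.12 in control and 14.43 in icKO naive microglia, 13.96 and 13.56 in EAE, 13.86 and 13.79 with iguratimod, and 14.51 and 14.34 on the p50 arrays. The lowest was the icKO EAE array, on which Clec4e and Clec12a were highest and Clec4a3 was lowest. The median difference of the list was -0.45 in EAE against naive, with none of 10 called (Gpr34 at -1.48 and Fcrls at -1.31), and 0.83 in p50 EAE against EAE, where Tmem119 rose by 0.90 ± 0.16 (limma adjusted p = 0.0485). None of the 6 astrocyte and neuron markers was above the 50th percentile on any array, and 1 of the 5 oligodendrocyte and 1 of the 4 B cell markers were. Of the 6 named T cell markers, between 1 and 3 were above it on an array. The T cell list mean was 8.20 on the icKO EAE array and between 7.72 and 7.93 on the others. In EAE against naive its median difference was 0.39, and limma called 0 of the 4 tested (Cd3e at 0.62 ± 0.23 and Cd3d at 0.56 ± 0.14). The mean of the monocyte list was 8.54 in control and 8.17 in icKO naive microglia, 9.93 and 10.38 in EAE, 8.71 and 9.63 with iguratimod, and 8.51 and 8.77 on the p50 arrays. Of its 9 named genes, between 2 and 8 were above the 50th percentile on an array. It was thus highest on the EAE arrays, where Clec4e, Clec4d and Clec12a were highest and Clec4a3 was low. In EAE against naive limma called 3 of its 8 tested genes as higher, where 3.33% of all genes were. These were Ly6c2 at 4.32 ± 0.40, Ms4a4c at 2.61 ± 0.38 and Chil3 at 2.24 ± 0.38 (limma adjusted p at most 0.0413). Only 2 genes of the list were above the 50th percentile on all 8 arrays. Others passed the filter only through arrays where they were high, so the count is not read against that share. The mean naive level of Chil3, 8.12, was below the 50th percentile of either naive array, so its value does not give the size of the rise. The mean of the neutrophil list was 10.44 and 9.15 in naive control and icKO, 14.11 and 11.67 in EAE, 10.74 and 12.06 with iguratimod, and 9.18 and 9.88 on the p50 arrays, with at least 9 of its 10 genes above the 50th percentile everywhere. In EAE against naive the median difference of the neutrophil list was 3.47, with 0 of its 10 genes called, and that of the monocyte list was 2.06. Clec4d, Clec4e and Clec12a were higher on the icKO EAE array than on the control EAE array. From control to icKO EAE, the neutrophil mean was 14.11 and 11.67 and the monocyte mean 9.93 and 10.38, each on 1 array. The part of such cells in the values of the 10 genes was not tested, and in bulk RNA fewer cells of a type and less RNA per cell cannot be told apart.

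Over the 8 arrays, the level of Clec4e followed the monocyte list mean with a Pearson r of 0.94, Clec12a with 0.90, Clec4d with 0.90 and Clec4a3 with -0.90. For Cd33 it was -0.23 and for Clec5a 0.39. Other lists gave strong values too. With the microglia mean r was -0.88 for Clec12a, -0.80 for Clec4n, -0.77 for Clec4e and 0.76 for Siglece. Clec12a had 0.76 with the neutrophil mean and 0.79 with the dendritic cell mean, and Cd33 had -0.80 with the border macrophage mean. These are descriptions over 8 arrays that share labelling and normalization, and the EAE pair sets much of the range. Among the genes themselves, Clec4e, Clec4d, Clec4n and Clec12a had r between 0.83 and 0.95 with each other, and Clec4a2 and Clec4a3 had 0.82.

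**Figure D4:**
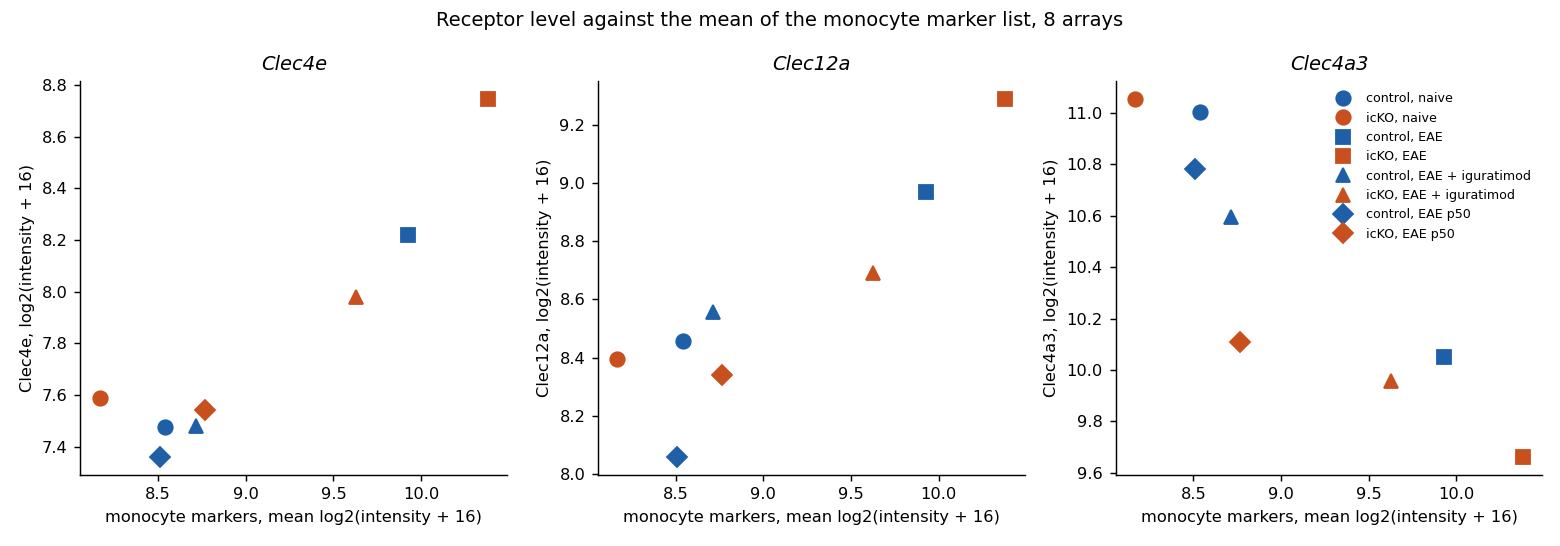
Level of Clec4e, Clec12a and Clec4a3 on each array against the mean level of the monocyte marker list, both as log2(intensity + 16); colour gives the genotype and shape the state. Clec4e and Clec12a were highest and Clec4a3 lowest on the icKO EAE array, which also had the highest monocyte mean, 10.38.

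By the same measure over the 8 arrays, the named genes whose pattern was most like that of Clec4e were Capg, Ndufb7 and Cstb, with r from 0.96 to 0.97. For Clec4d they were Dhrs1, Capg and Psmb2, for Clec4n Ubxn4, Mtch2 and Morf4l1b, and for Clec12a Slirp, Srp72 and Tctex1d2. Cd33 was closest to Prex1, Nckap1l and Nuak1, each with r of at least 0.99, and Clec5a to Clasp1, Ntpcr and Pik3cb. Siglece was closest to Ulk2, Slc29a1 and Terf2, Clec4a2 to Hfe, Sec11c and Zfp738, Clec4a3 to Bank1, Ecscr and Sult1a1, and Clec4a1 to Aida, Phf5a and Lsm7. The r values of all these genes were at least 0.89, chosen as the highest among all tested genes of higher mean level, and are no test.

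Of the other C-type lectins, 16 of 22 were bright enough to be tested. In EAE against naive 2 rose and 0 fell, where limma called 3.33% of all genes higher and 0.384% lower. Only 7 of the 22 were above the 50th percentile on all 8 arrays, so the count is not read against these shares. Clec2d, a ligand of an inhibitory natural killer cell receptor, gave 1.35 ± 0.21 (limma adjusted p = 0.0331). Olr1, the receptor for oxidised lipoprotein, gave 0.71 ± 0.13 (limma adjusted p = 0.0469). The mean naive level of Olr1, 7.71, was below the 50th percentile of either naive array, so its value does not give the size of the rise. Clec7a, the beta-glucan receptor Dectin-1, had the largest difference of the list, 4.82 ± 1.12, with an adjusted p of 0.0836, and Cd69 gave 1.61 ± 0.69. Of the other Siglecs all 7 were tested and none was called in any comparison over several arrays. Siglech, a microglial Siglec that couples to DAP12, lay between 16.12 and 17.04 and gave -0.48 ± 0.22 in EAE.

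Among the partners of these receptors, 9 of 11 genes of the ITAM and Syk-Card9 list were tested, and limma called 0 in EAE, with a median difference of 0.29 against 0.01 over all genes. Fcer1g, the Fc receptor gamma chain that Mincle, MCL and Dectin-2 need, gave 0.64 ± 0.17 (adjusted p = 0.115), with levels of 11.20 and 11.51 in naive control and icKO and 11.88 and 12.11 in EAE. Tyrobp, which encodes DAP12, lay between 16.30 and 17.33, and Card9 between 8.10 and 8.41. Of the 3 phosphatase genes, Inpp5d, which encodes the inositol phosphatase SHIP1, rose by 1.10 ± 0.16 in p50 EAE against EAE (limma adjusted p = 0.0334). Its p50 arrays were at 13.67 and 13.49, and the other 6 lay between 12.02 and 12.55. Ptpn6, which encodes SHP-1, gave 0.58 ± 0.22 in EAE against naive (limma adjusted p = 0.238), and Ptpn11 stayed between 8.39 and 8.72.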

How the data were processed

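The authors deposited 1 table of intensities, 65956 rows by 8 arrays, linear by their range. Affymetrix Expression Console is named in the submitters' processing notes; summarisation, normalization and build are not given in the sources used here. Array medians ran from 243 to 269. Precision is limited by the 8 arrays, and low intensity does not show absence.

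Rows were named through the platform annotation, updated with RefSeq records (GRCm38.p6): 31216 carried 1 gene, 1534 several (left out), and 33206 were unnamed here. The brightest probe set stood for a gene. Values were log2(intensity + 16), which understates changes of dim genes. Genes brighter than the 50th percentile of named probe sets on 1 or more arrays were tested with limma 3.58.1 (R 4.3.3; lmFit and eBayes, 3 residual degrees of freedom, prior SD 0.16), adjusted by Benjamini-Hochberg over all genes tested, at 0.05. The script was tested on simulated data. P-values measure only the spread between these arrays.

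All 10 receptor genes are named. From other lists, genes that passed and up to 3 with the largest differences were named, and for likeness the 3 genes with the highest Pearson r. Some further genes of these lists, such as those beside the receptors in the cluster, were named for their known role after values were seen. The genes and lists were chosen with earlier results of these data known. Promoter sequences are from RefSeq; protein sequences were not used here. Alternatives were other filters, normalizations, pseudocounts, probe set rules, priors and sets of arrays.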

Additional observations from a re-analysis of the deposited data

How the results depend on the processing

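Each group had 1 array, so its own spread is unknown, and the smallest change of design moves adjusted p-values near 0.05. In EAE against naive, leaving out 1 array at a time gave 0 to 605 genes and 0 of the 10 receptor genes called. In p50 EAE against EAE it gave 65 to 426 genes and 0 of the 10, in p50 EAE against naive 50 to 221 genes, and in iguratimod EAE against naive 0 genes. Without both p50 arrays EAE against naive gave 231 genes and 0 receptor genes, and iguratimod EAE against naive 0 genes. Without both iguratimod arrays 0 receptor genes were called in EAE against naive and 0 in p50 EAE against EAE, and 221 genes in p50 EAE against naive.

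Quantile normalization gave 205 genes and 0 receptor genes in EAE against naive. Receptor genes called there were 1 without the filter (Clec4e, among 463 genes), 1 with the filter at the 70th percentile, which drops Clec4e and Clec4a1 (Clec4a3, among 875 genes), and 1 with the trended and robust prior (Clec12a, adjusted p = 0.0473 by limma, among 503 genes). In p50 EAE against EAE the 1 with that filter (615 genes) and the 1 with that prior (409 genes) were both Clec12a. The stricter filter gave 3 genes in iguratimod EAE against naive, 370 in p50 EAE against naive and 14 for the genotype difference in the EAE change, where the trended prior gave 19. Centring arrays on their median gave 392 genes in p50 EAE against naive and 0 receptor genes at 2-fold between genotypes under iguratimod. A pseudocount of 64 left 46 genes at 2-fold between genotypes in p50 EAE, and 0 receptor genes at 2-fold for iguratimod in control.

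At 1.5-fold in place of 2-fold, icKO against control gave 1923 genes and 1 receptor gene in naive, 1521 and 4 in EAE, 2543 and 2 under iguratimod, and 610 and 1 on p50 arrays. EAE against naive gave 3758 genes and 4 receptor genes in control and 3017 genes in icKO. Iguratimod against EAE gave 2536 and 3 in control and 1835 and 4 in icKO.

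Signs turned only for differences that passed no test. With quantile normalization these were Cd33 in EAE against naive (-0.32), Clec4a2 in iguratimod against EAE (0.081), Clec4n in iguratimod against naive (-0.022), Clec4a1 in p50 against naive (0.014), Clec5a in p50 against EAE (0.038), Cd33 for genotype (-0.013) and Clec4e for the genotype difference in the iguratimod change (0.080). With median centring they were Clec4a1 in p50 against naive (0.016) and that Clec4e value (0.075). Without both iguratimod arrays the genotype value was -0.00039 for Clec4d and -0.063 for Cd33. With only the later state given its own genotype effect, the difference in the EAE change was 0.034 for Clec4a3, and that in the iguratimod change 0.36 for Clec4d, 0.22 for Clec4e, 0.34 for Clec4n and -0.12 for Siglece.

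Leaving out 1 array at a time, EAE against naive ran from -0.057 to 0.098 for Cd33 and from -0.40 to 0.29 for Siglece. Iguratimod against EAE ran from -0.060 to 0.041 for Clec4a1 and from -0.42 to 0.40 for Clec4a2. Iguratimod against naive ran from -0.0032 to 0.12 for Clec4a1, -0.42 to 0.62 for Clec4d, -0.34 to 0.34 for Clec4n and -0.046 to 0.48 for Clec5a. P50 against naive ran from -0.11 to 0.011 for Clec4a1, -0.42 to 0.61 for Clec4d, -0.23 to 0.063 for Clec4e and -0.096 to 0.60 for Siglece. P50 against EAE ran from -0.11 to 0.40 for Clec4a2 and -0.31 to 0.24 for Clec5a. Genotype ran from -0.085 to 0.35 for Clec4d, -0.24 to 0.030 for Clec5a and -0.063 to 0.074 for Cd33. The cause of these changes was not tested. The fit is already blocked, by state for the genotype comparison and by genotype for the comparisons of states, and with 1 array a group no further replicate number could be used.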

Other observations

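Of the genes for sialic acid synthesis and transfer, which make the ligands of Siglecs, 10 of 15 were tested and limma called 0 in EAE against naive. St3gal6, a sialyltransferase, had the largest difference, -1.13 ± 0.24 (limma adjusted p = 0.0702). Its level was 12.56 and 12.96 in naive control and icKO, 11.93 and 11.34 in EAE, 12.08 and 12.25 with iguratimod, and 12.31 and 12.26 on the p50 arrays. Both naive arrays were above the other 6.

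Of the cytokine and inflammasome genes that act after Syk and Card9, 7 of 10 were tested and limma called 0 in EAE against naive. Il1b, an inflammatory cytokine, gave 2.30 ± 0.50 (limma adjusted p = 0.0728), with levels of 8.54 and 8.42 in naive control and icKO, 9.77 and 11.79 in EAE, 8.71 and 10.32 with iguratimod, and 8.58 and 9.18 on the p50 arrays. The icKO array was above the control array in each state but naive. Nlrp3, an inflammasome sensor, rose by 0.78 ± 0.13 in p50 EAE against EAE (limma adjusted p = 0.0417).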
